A study of Rattus norvegicus with 12 samples.

Results

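The genes described here are the rat matrix metalloproteinases Mmp2, Mmp3, Mmp9, Mmp11, Mmp13 and Mmp14 and the tissue inhibitors Timp1, Timp2, Timp3 and Timp4. These 10 genes were chosen by name and are 10 of the 16511 genes counted. The deposited descriptions give the samples as snap-frozen mammary glands of rat offspring at postnatal day (PND) 21, from Sprague-Dawley rats by the study's methods. The mothers received a high fat butter (HFB) diet in 1 group and the control AIN diet (CTL) in the other, and the newborns of both groups were kept on the AIN diet. Each group had 6 libraries, with 1 gland per litter, so the 12 libraries are separate litters. The deposited design text and the study's methods date the exposure differently. The methods also describe RNA from microdissected samples where the deposited text names glands. These texts thus settle neither the exposure window nor the exact tissue. In every library the fat marker Fabp4 had at least 32354 counts and the fibroblast marker Dcn at least 1986. The epithelial marker Krt8 had at most 555. The libraries thus held RNA of fat and connective tissue and not of epithelium alone. Libraries are named by diet and running library number, which is 1 to 6 for HFB and 7, 8, 9, 10, 11 and 14 for CTL. Total counts lay between 2320267 and 2944680 per library. Levels are given as counts or as CPM, the counts scaled to library size with TMM factors, and levels under 3 counts in a library, equal to 0.945 to 1.30 CPM, were treated as below detection. Only counting error enters this limit.

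Matrix metalloproteinases (MMPs) are zinc-dependent endopeptidases that are made as inactive proenzymes and, once activated, cut collagens, laminins and other proteins of the extracellular matrix. The Timp proteins bind the active site of these enzymes and block them, and Timp2 together with the membrane-anchored Mmp14 also takes part in the activation of proMmp2. In the mammary gland both families are known for their roles in the growth of ducts into the fat pad and in the regression of the gland after weaning.

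Libraries HFB 5, HFB 6 and CTL 14 stood apart from the rest over all genes. The median distance of a gene from its own median over the 12 libraries, in log2 CPM, was 0.35 in HFB 5, 0.66 in HFB 6 and 0.51 in CTL 14, and lay between 0.12 and 0.18 in the other 9. The median Spearman rho of a library with the 11 others was 0.914, 0.787 and 0.831 in these libraries and 0.941 to 0.964 in the other 9. Fold changes and relations of the members, and the signs of fold changes in the gene lists, are therefore given with and without these 3 libraries. Fold changes of single genes outside the members and medians of the marker lists are given for all 12 libraries only. No measure of RNA quality was analysed here.

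Markers of other cell types also differed among libraries. Of 8 lymphoid markers 7 were in the table, and their summed level was 878 CPM in HFB 6, 867 in CTL 14, 211 in HFB 1 and 111 in HFB 2, against 7.5 to 32.9 CPM in the other 8, HFB 5 with 15.8 among them. Lck was the most abundant lymphoid marker, and none of the 7 was at 0 in every library. The 6 adipocyte markers, with Fabp4 the most abundant, summed to 17519 CPM in HFB 6 and 14165 in CTL 14 and to 26857 to 34377 CPM in the other 10 libraries. The 6 fibroblast markers, with Dcn the most abundant, summed to 2274 CPM in HFB 6 and 1817 in CTL 14 and to 3348 to 5129 CPM elsewhere. Of 8 epithelial markers 7 were in the table. Krt8 was the most abundant of these and Cldn3 was at 0 in all libraries. Their sum was 555 CPM in HFB 5, 597 in HFB 6 and 576 in CTL 14, and 108 to 453 CPM in the other 9. Of 5 endothelial markers 3 were in the table, with Pecam1 the most abundant and none at 0 in every library. Their sum was 302 CPM in HFB 6 and 315 in CTL 14, and 95.2 to 167 CPM in the other 10. Thus HFB 6 and CTL 14 had high lymphoid and low adipocyte and fibroblast sums, and their endothelial sums were also high. The mean log2 CPM of the endothelial markers was 6.13 in CTL 14 but 5.12 in HFB 6. The latter lay within the 4.98 to 5.80 of the 9 libraries other than HFB 5, HFB 6 and CTL 14. The high endothelial sum of HFB 6 was thus not matched by its mean over the 3 markers. HFB 5 shared with HFB 6 and CTL 14, of these 5 lists, the high epithelial sum. In the other 6 lists the sums of HFB 6 and CTL 14 were not both above or both below those of all other libraries. Fewer cells of a type and less RNA per cell cannot be told apart in bulk tissue.

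The gelatinase Mmp2, which degrades denatured collagen and basement membrane collagen, was well measured, with 682 to 1733 counts per library. In the HFB glands its level had a lowest value of 338 CPM, a median of 439.5 and a highest of 668. In the CTL glands the corresponding values were 237, 479.7 and 600.1 CPM. HFB 5 was the highest and CTL 14 the lowest library, and the groups overlapped over most of their range.

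Mmp14, the membrane-type metalloproteinase that activates proMmp2 at the cell surface, had 157 to 518 counts per library. Its level in HFB glands was 67.0 CPM at the lowest, 119.7 at the median and 179 at the highest. In CTL glands it was 90.1, 143.6 and 163 CPM. The groups overlapped, with HFB 2 and HFB 3 below every control and HFB 5 and HFB 6 above every control.

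Counts of Mmp14 per count of Mmp2 lay between 0.183 and 0.317 in the 9 libraries other than HFB 5, HFB 6 and CTL 14. The ratio was 0.268 in HFB 5, 0.422 in HFB 6 and 0.380 in CTL 14. HFB 6 and CTL 14 thus had the highest ratios, while HFB 5 lay within the range of the others. Such ratios are followed across libraries only, since transcript lengths were not used. Where a gene is called the most abundant of a list, this is by median CPM and not per length.

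**Figure D1:**
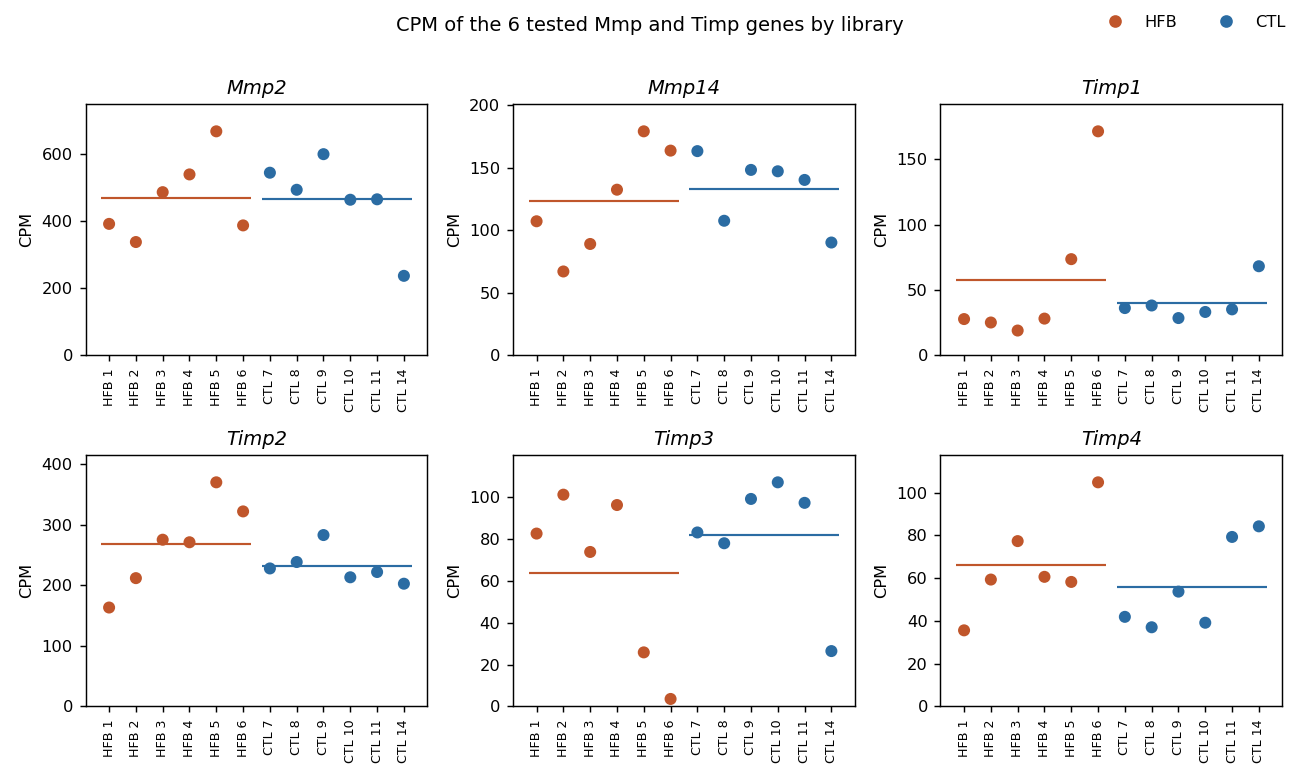
Level in CPM of the 6 tested members in each of the 12 libraries, with HFB in orange and CTL in blue; each point is 1 library and horizontal lines are group means. Timp1 is high and Timp3 low in HFB 5, HFB 6 and CTL 14, and the groups overlap for each of the 6 genes.

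The other gelatinase, Mmp9, which is stored and released by neutrophils and is also made by other leukocytes, was near the limit of detection in most glands. It had 34 counts in HFB 6, 34 in CTL 14, 10 in HFB 1 and 6 in CTL 9, and 0 to 2 counts in the other 8 libraries. The 2 libraries with the most Mmp9, 1 in each diet, were also the 2 with the highest lymphoid score, the mean log2 CPM of the lymphoid markers, which was 6.22 in HFB 6 and 6.56 in CTL 14. HFB 1 came next in both measures, with a lymphoid score of 4.50. HFB 2 followed in lymphoid score, at 3.72, and had 1 count of Mmp9. HFB 5, which stood apart over all genes, had 2 counts of Mmp9 and a lymphoid score of 1.14. The neutrophil score was 2.14 in HFB 6 and 2.45 in CTL 14, and 1.61 to 2.33 in the 9 libraries other than HFB 5, HFB 6 and CTL 14. Of its 7 markers Mpo had a median of 160 CPM, while the others had medians of 0 to 3.84 CPM. Elane was at 0 in 10 libraries and Ngp in 8. The score is thus not read as a level of neutrophils. The part of leukocytes in the Mmp9 counts was not tested.

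**Figure D2:**
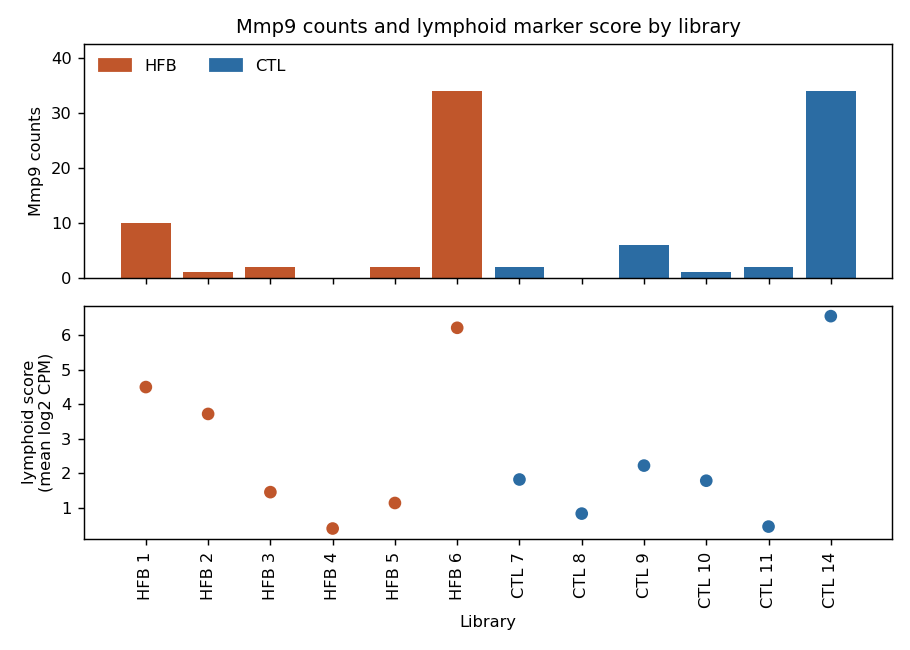
Counts of Mmp9 (bars, upper panel) and lymphoid score in mean log2 CPM (points, lower panel) in each library, with HFB in orange and CTL in blue. HFB 6 and CTL 14 have 34 Mmp9 counts each and the highest lymphoid scores.

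The stromelysin Mmp3, which cuts proteoglycans and laminin and can activate other proenzymes, had 2 to 11 counts per library, 19 in all HFB glands and 31 in all CTL glands. It was under 3 counts in 3 libraries. Mmp11, also called stromelysin-3 and known from stromal fibroblasts around epithelium, had 2 to 24 counts, with 63 in all HFB glands and 65 in all CTL glands. The collagenase Mmp13, which cleaves fibrillar collagen, had 1 count in HFB 5, 1 in HFB 6 and none elsewhere. It was therefore not detectable in any library at this depth. Mmp3, Mmp9, Mmp11 and Mmp13 did not pass the filter on low counts and were not tested.

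Mmp3 and Mmp13 lie in the cluster of metalloproteinase genes on rat chromosome 8. In gene order on the GRCr8 assembly the protein-coding genes of this cluster are Mmp13, Mmp12, Mmp1b, Mmp3, Mmp1, Mmp10, Mmp8, Mmp27, Mmp20 and Mmp7. Mmp27 had 26 to 82 counts per library and Mmp12 had 0 to 9. Mmp1, Mmp7, Mmp8, Mmp10 and Mmp20 had 0 to 2 counts in any library, and Mmp1b was not analysed here. Of the 9 cluster genes counted, Mmp27 alone passed the filter.

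Promoter sequences of 7 of the 10 members were found in the RefSeq table of the GRCr8 assembly, as the 250 bases before the annotated start. They were searched on both strands for TGANTCA, the motif of the AP-1 transcription factors (Fos and Jun proteins). The motif was present in 2 of the 7, Mmp3 and Mmp13, and in 6.36% of all 27457 promoters of this length. These 2 promoters are shown because they are the members with the fewest total counts, and capitals mark the motif, which begins 71 bases before the start in Mmp3 and 66 bases before it in Mmp13. A match is a description of the sequence, and binding was not measured. The Mmp3 window is chr8:12925031-12925280 and the Mmp13 window chr8:12782579-12782828, both on the plus strand.
Mmp3: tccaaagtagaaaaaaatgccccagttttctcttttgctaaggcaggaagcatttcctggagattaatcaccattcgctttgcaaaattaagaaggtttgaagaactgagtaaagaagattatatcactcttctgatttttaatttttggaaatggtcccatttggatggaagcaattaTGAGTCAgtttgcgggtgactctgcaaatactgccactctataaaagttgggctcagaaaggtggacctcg
Mmp13: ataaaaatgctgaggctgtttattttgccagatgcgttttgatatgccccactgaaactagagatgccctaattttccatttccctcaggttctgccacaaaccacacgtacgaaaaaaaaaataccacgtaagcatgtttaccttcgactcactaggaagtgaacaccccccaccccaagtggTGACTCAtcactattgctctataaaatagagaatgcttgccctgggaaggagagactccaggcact

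Among the inhibitors, Timp1 and Timp3 differed most among libraries, and in opposite directions. Timp1 is a secreted inhibitor that is also known as a gene induced by growth factors and cytokines, and Timp3 is the family member that binds to the extracellular matrix and also inhibits Adam17 and several ADAMTS enzymes. Their promoters are shown because the counts of these genes moved apart in the same 3 libraries. Neither window holds an exact match to TGANTCA. Only exact matches were searched for, so related AP-1 sites would be missed. The Timp1 window holds TGAGTAA, which differs from the motif in the next-to-last base. G and C bases make up 61.2% of the Timp1 window and 69.6% of the Timp3 window, against a median of 52.0% over all promoters. The Timp1 window is chrX:3771123-3771372 and the Timp3 window chr7:19459559-19459808, both on the minus strand.
Timp1: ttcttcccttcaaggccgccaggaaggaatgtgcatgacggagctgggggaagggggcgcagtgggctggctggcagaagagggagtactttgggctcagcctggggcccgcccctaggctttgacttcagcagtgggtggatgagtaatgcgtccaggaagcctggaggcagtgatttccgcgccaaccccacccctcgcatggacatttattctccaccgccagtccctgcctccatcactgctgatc
Timp3: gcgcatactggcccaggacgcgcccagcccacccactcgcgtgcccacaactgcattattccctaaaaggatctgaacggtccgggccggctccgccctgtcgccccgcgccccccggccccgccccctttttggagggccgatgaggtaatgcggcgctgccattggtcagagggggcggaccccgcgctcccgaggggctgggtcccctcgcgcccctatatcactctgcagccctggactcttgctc

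Timp3 had 9 counts in HFB 6, 67 in HFB 5 and 76 in CTL 14, and 190 to 290 counts in each of the other 9 libraries. In HFB glands the lowest, median and highest levels were 3.57, 78.2 and 101 CPM. In CTL glands they were 26.5, 90.2 and 107 CPM. The 3 low libraries belonged to both diets, and the groups overlapped.

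Timp1 had 432 counts in HFB 6, 191 in HFB 5 and 196 in CTL 14, and 49 to 115 counts in the other 9 libraries. In HFB glands the lowest, median and highest levels were 19.0, 28.0 and 171 CPM. In CTL glands they were 28.6, 35.7 and 68.2 CPM. The groups overlapped only through HFB 5 and HFB 6, since the other 4 HFB glands lay below all controls.

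The number of Timp1 counts per Timp3 count was 0.249 to 0.490 in the 9 libraries other than HFB 5, HFB 6 and CTL 14. It was 2.85 in HFB 5, 48 in HFB 6 and 2.58 in CTL 14. Timp3 made up 16.6% to 27.3% of the summed counts of the 4 Timp genes in the 9 libraries, and 4.90%, 0.594% and 6.93% in HFB 5, HFB 6 and CTL 14. The 3 libraries were thus separated from the others by this ratio without overlap.

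The size of these shifts can be set against all 9382 genes tested. Timp3 in HFB 6 lay -4.27 log2 units from its own median over the 12 libraries, and 0.384% of genes lay lower in that library. In HFB 5 the distance was -1.65, with 3.79% of genes lower, and in CTL 14 it was -1.62, with 4.53% lower. Timp1 lay 1.09 log2 units above its median in HFB 5, with 0.554% of genes higher, 2.30 units above it in HFB 6, with 1.94% higher, and 0.98 units above it in CTL 14, with 11.4% higher. Other genes were therefore shifted as far in these libraries, with the smallest shares beyond Timp3 in HFB 6 and beyond Timp1 in HFB 5. HFB 6 and CTL 14 were also the libraries with the high lymphoid and the low adipocyte and fibroblast sums given above, and HFB 5 was not among these. The endothelial sums of HFB 6 and CTL 14 were high too, but the mean endothelial log2 CPM of HFB 6 was not. All 3 libraries had the high epithelial sums given above. The part of cell composition, RNA quality or library preparation in these shifts was not tested.

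**Figure D3:**
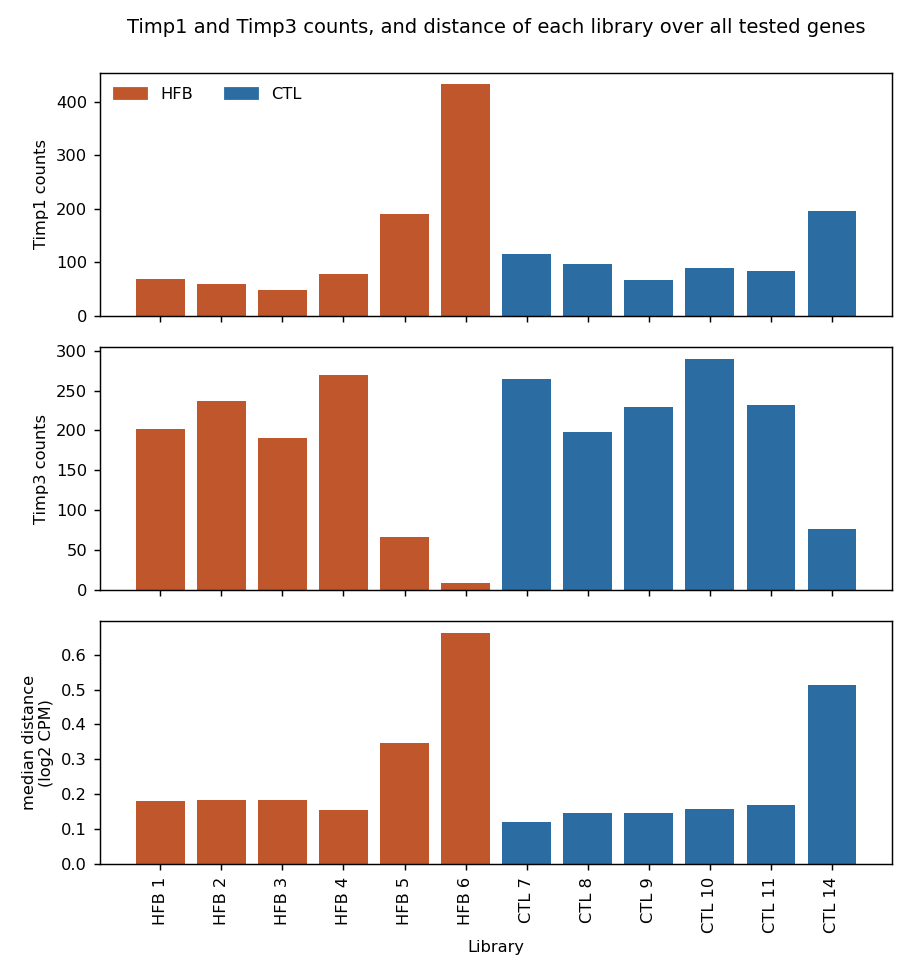
Counts of Timp1 (upper panel) and Timp3 (middle panel) and the median distance of all tested genes from their own medians in log2 CPM (lower panel) in each library, with HFB in orange and CTL in blue. The 3 libraries with the lowest Timp3 and the highest Timp1, HFB 5, HFB 6 and CTL 14, are also those with the largest distance over all genes.

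Timp2, the inhibitor that links Mmp14 to proMmp2, had 399 to 959 counts per library. Its level in HFB glands was 163 CPM at the lowest, 273.0 at the median and 369.8 at the highest. In CTL glands it was 202.5, 225 and 283 CPM. The HFB values spread wider than the CTL values on both sides, and the groups overlapped.

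Timp4, which in adult tissues is more restricted than the other inhibitors and is known from heart and fat, had 87 to 264 counts per library. Its level in HFB glands was 35.6 CPM at the lowest, 59.97 at the median and 105 at the highest. In CTL glands it was 37.0, 47.8 and 84.2 CPM. Of the 6 HFB libraries 5 were above the CTL median, and the groups overlapped.

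Timp1, Timp3 and Timp4 lie within the spans of the synapsin genes Syn1, Syn3 and Syn2 in the GRCr8 gene order. Since use of strand in the counting was not given in the sources used here, reads of such overlapping genes could have been assigned to either gene. Syn1 had 0 to 3 counts per library, Syn3 had 0 to 4 and Syn2 had 0 to 12. Counts of the synapsin genes were thus low beside those of the inhibitors they span, except for Timp3 in HFB 6. Mmp11 overlaps Chchd10, which had 336 to 862 counts, so the few Mmp11 counts are uncertain, and Timp2 overlaps Cep295nl, which had 0 to 2.

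The comparison of HFB with CTL asked whether the maternal diet was followed by a difference in the offspring gland. Of the 10 members, 6 passed the filter on low counts, which kept 9382 genes. In edgeR 0 of the 6 had an adjusted p under 0.05, as did 0% of all genes tested. At an unadjusted p under 0.05, edgeR called 0 of the 6 and 220 of all genes, or 2.34%. With a fold change above 2 in addition, it called 0 of the 6 and 0.117% of all genes. The groups did not overlap for 0 of the 6 and for 0.107% of all genes. DESeq2 and limma also gave 0 genes with an adjusted p under 0.05, and 271 and 613 genes at an unadjusted p under 0.05. Over the 6 tested members 4 log2 fold changes were positive and 2 negative, with a median of 0.11, beside 4694 positive and 4688 negative over all genes.

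The mean level of Mmp2 was 469 ± 122 CPM in HFB and 468 ± 124 CPM in CTL (SD, n = 6 each), a log2 fold change of 0.0036 with a standard error of 0.22. For Mmp14 the means were 123 ± 43.4 and 133 ± 27.8 CPM, with a log2 fold change of -0.11 and a standard error of 0.23. Both differences were smaller than the spread within groups, with an adjusted p of 0.999 in edgeR. The 95% confidence interval of the Mmp2 difference ran from -0.48 to 0.48 on the log2 scale.

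For Timp1 the means were 57.6 ± 59.2 CPM in HFB and 39.9 ± 14.2 CPM in CTL, with a log2 fold change of 0.53 and a standard error of 0.50. For Timp3 they were 63.9 ± 39.9 and 81.9 ± 29.2 CPM, with a log2 fold change of -0.36 and a standard error of 0.54. These were the widest errors among the tested members, and the adjusted p was again 0.999 for both. Timp2 had a log2 fold change of 0.22 with a standard error of 0.18, and Timp4 one of 0.24 with a standard error of 0.28, at the same adjusted p.

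Without HFB 5, HFB 6 and CTL 14 the 9 remaining libraries were 4 HFB and 5 CTL glands. The log2 fold change of Timp1 then turned to -0.45 with a standard error of 0.15, at means of 25.1 ± 4.22 CPM in HFB and 34.3 ± 3.66 CPM in CTL. That of Mmp14 was -0.51 with a standard error of 0.18. Both had an adjusted p of 0.876 in edgeR, which called 0% of all genes at an adjusted p under 0.05. At an unadjusted p under 0.05, 2 of the 6 members, Mmp14 and Timp1, were called beside 5.37% of the 9480 genes tested. For 1 of the 6, Timp1, the groups did not overlap, beside 1.37% of all genes. The direction of Timp1 thus rests on these libraries, and leaving out HFB 6 alone turned its log2 fold change to -0.20. Without HFB 6 alone Timp3 was at -0.11 and Timp4 at 0.058 on the log2 scale. Without the 3 libraries Mmp2 was at -0.23, Timp2 at -0.039, Timp3 at -0.067 and Timp4 at 0.22 on the log2 scale. These 3 libraries were left out after their values had been seen.

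**Figure D4:**
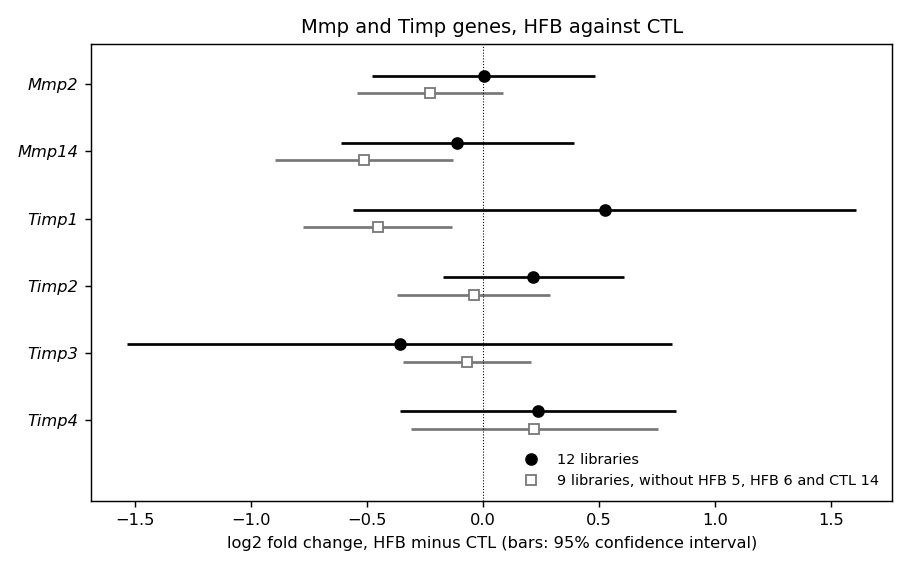
Log2 fold change of HFB minus CTL for the 6 tested members with 95% confidence intervals, from all 12 libraries (filled circles) and from 9 libraries without HFB 5, HFB 6 and CTL 14 (open squares). Timp1 lies at 0.53 with 12 libraries and at -0.45 with 9, and the intervals of Timp1 and Timp3 narrow.

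Relations across libraries were computed on log2 CPM for the 15 pairs of tested members and for each member with 11 marker scores, 81 relations in all. Since HFB 5, HFB 6 and CTL 14 formed a separate cluster in Timp1 and Timp3, no Pearson r over 12 libraries is given for these genes. That of Timp1 and Timp3 was negative, with an adjusted p of 0.0401 in the permutation test. Over the other 9 libraries Pearson r of Timp1 and Timp3 was 0.21 (exact permutation p = 0.600, adjusted p = 0.860), and Spearman rho was 0.033 (exact permutation p = 0.948, adjusted p = 0.998). Without the 2 of these libraries farthest from the median of Timp3, r was -0.15. The opposite movement of the 2 inhibitors thus rests on the 3 libraries.

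Mmp2 was positively related to the fibroblast score over the 12 libraries (r = 0.85, permutation p = 0.00099, adjusted p = 0.0401). Spearman rho was 0.80 (permutation p = 0.0023, adjusted p = 0.0518). Without the 2 libraries farthest from the median fibroblast score, HFB 6 and CTL 14, r was 0.70 (permutation test, adjusted p = 0.2001), and it was 0.73 within HFB and 0.93 within CTL. Without HFB 6 it was 0.91 within HFB, and without CTL 14 it was 0.080 within CTL, so the value within CTL rests on CTL 14. Over the 9 libraries without HFB 5, HFB 6 and CTL 14 it was 0.73 (exact permutation p = 0.0267, adjusted p = 0.307). The sign of r was thus the same in each of these sets, with a value near 0 in CTL without CTL 14. Its passing of the adjusted threshold rests on HFB 6 and CTL 14, the libraries with the lowest fibroblast scores. With the lymphoid and neutrophil scores Mmp2 had r of -0.79 each over 12 libraries (permutation test, adjusted p = 0.0551 and 0.0567). Without CTL 14 and HFB 6 these were -0.63 and -0.54 (permutation test, adjusted p = 0.311 and 0.355). Most genes of the neutrophil list were near the limit of detection, as given above.

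**Figure D5:**
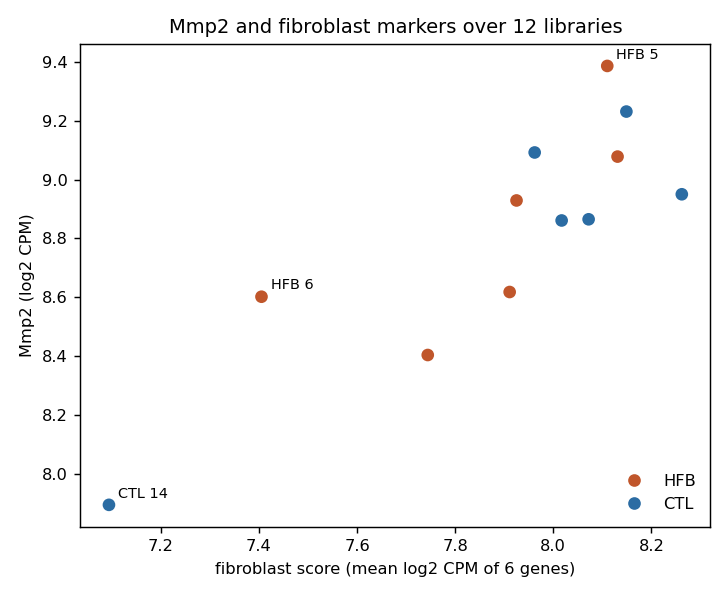
Mmp2 in log2 CPM against the fibroblast score, the mean log2 CPM of 6 fibroblast markers, with 1 point per library, HFB in orange and CTL in blue. Pearson r is 0.85 over the 12 libraries, and CTL 14 is lowest on both axes.

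Mmp2 and Mmp14 had r = 0.64 over 12 libraries (permutation p = 0.0241, adjusted p = 0.160) and rho = 0.56 (permutation p = 0.0625, adjusted p = 0.337). Without the 2 libraries farthest from the median of Mmp14 r was 0.72, and it was 0.62 within HFB (0.89 without HFB 6) and 0.81 within CTL (0.33 without CTL 14). It was 0.81 without CTL 14 and HFB 6 (permutation test, adjusted p = 0.0964) and 0.75 over the 9 libraries without HFB 5, HFB 6 and CTL 14 (exact permutation p = 0.0199, adjusted p = 0.307). Mmp2 and Timp2 had r = 0.56 (permutation p = 0.0551, adjusted p = 0.203) and rho = 0.65 (permutation p = 0.0262, adjusted p = 0.235). Without the 2 libraries farthest from the median of Timp2 r was 0.44, and it was 0.65 within HFB (0.87 without HFB 6) and 0.73 within CTL (0.86 without CTL 14). It was 0.81 without CTL 14 and HFB 6 (permutation test, adjusted p = 0.0964) and 0.71 over the 9 libraries (exact permutation p = 0.0341, adjusted p = 0.307), where rho was 0.83 (exact permutation p = 0.00827, adjusted p = 0.335). Both relations of Mmp2 were thus positive in each of these sets. Mmp14 and Timp2 had r = 0.51 (permutation p = 0.0906, adjusted p = 0.282) and rho = 0.62 (permutation p = 0.0346, adjusted p = 0.275). Without the 2 libraries farthest from the median of Timp2 r was 0.40, and it was 0.66 within HFB (0.60 without HFB 6) and 0.40 within CTL, where it turned to -0.041 without CTL 14. It was 0.40 without CTL 14 and HFB 6 (permutation test, adjusted p = 0.535) and over the 9 libraries 0.17 (exact permutation p = 0.657, adjusted p = 0.888). None of the 3 pairs of Mmp2, Mmp14 and Timp2 passed the adjusted threshold in these sets, and r of Mmp14 and Timp2 was lower without the 3 libraries, whereas r of Mmp2 with either was higher.

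The genes most like each member were ranked by Pearson r of log2 CPM over the 12 libraries, as a description with no test. For Mmp2 they were Srpx2, Cercam and Crat (r = 0.97, 0.95 and 0.94, and 0.90, 0.88 and 0.93 over the 9 libraries). For Mmp14 they were Fzd2, Ap2b1 and Cybrd1 (r = 0.94, 0.89 and 0.87, and 0.93, 0.82 and 0.88 over the 9). For Timp2 they were Igfbp6, Trem2 and Ctdsp1 (r = 0.97, 0.94 and 0.93, and 0.98, 0.90 and 0.93 over the 9). For Timp4 they were RT1-S2, Wdr77 and Depp1 (r = 0.91, 0.91 and 0.90, and 0.88, 0.90 and 0.81 over the 9). The genes were picked over all 12 libraries, so the values over the 9 are no independent support.

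For Timp3 the most similar genes were Cog6, Tpm4 and Zc3h7b, with r of 0.71, 0.75 and 0.64 over the 9 libraries. For Timp1 they were Gnl1, Kctd17 and Pdlim7, with r of 0.73, 0.76 and 0.76 over the 9. Over 12 libraries r exceeded 0.9 with Timp3 for 658 of the 9382 genes and was below -0.9 for 387, whereas over the 9 these counts were 5 and 4. For Timp1 the counts were 179 and 371 over 12 libraries and 9 and 1 over the 9. A broad set of genes therefore shared the pattern of Timp1 or Timp3 over 12 libraries, and these counts rest on the 3 libraries.

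Of 17 other MMP genes 14 were in the table and 6 passed the filter, with 0 called at an adjusted or an unadjusted p under 0.05 and 3 positive and 3 negative log2 fold changes. Mmp23 had a log2 fold change of 0.30 with a standard error of 0.29, and Mmp27 one of 0.25 with a standard error of 0.31. Of 21 activators and regulators of MMPs 14 of 19 counted were tested, with 0 called by either rule and 7 positive and 7 negative. Without HFB 5, HFB 6 and CTL 14 the activators and regulators had 4 positive and 11 negative and the other MMPs 1 positive and 5 negative, and with limma these counts were 3 and 11, and 1 and 5. The plasminogen activator Plat had a log2 fold change of -0.30 with a standard error of 0.20. Sparc, a matrix protein that binds collagen, was the most abundant of this list, with 16785 to 40211 counts per library and a log2 fold change of -0.056.

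The ADAM and ADAMTS enzymes, which share the metzincin fold with MMPs and are partly inhibited by Timp3, had 12 of 17 genes tested and a median log2 fold change of -0.30, with 10 negative and 2 positive under each of 3 scalings (TMM, DESeq2 size factors and upper quartile). Without HFB 5, HFB 6 and CTL 14 there were 12 negative and 0 positive, with a median of -0.36, and with limma 11 and 1. None had an adjusted p under 0.05, while 3 had an unadjusted p under 0.05 and all 3 were lower in HFB, namely Adam17, Adamts9 and Adamts1. Over all 9382 genes 2.34% had an unadjusted p under 0.05, with 4694 log2 fold changes positive and 4688 negative. Adam17, the sheddase that Timp3 inhibits, was at 40.6 ± 7.77 CPM in HFB and 56.2 ± 5.28 CPM in CTL (n = 6 each), with a log2 fold change of -0.47 and a standard error of 0.14. Adamts9 had a log2 fold change of -0.49 with a standard error of 0.16, and Adamts12, the most abundant, one of -0.41 with a standard error of 0.23. Adamts1, named after its values were seen, was at -0.69 with a standard error of 0.28. The adjusted p was 0.999 for each of the 4.

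Of 14 substrates of the matrix 10 were in the table and tested, with 0 called by either rule. All 10 log2 fold changes were negative under the same 3 scalings and without HFB 5, HFB 6 and CTL 14, with a median under TMM of -0.21, beside a median of 0.00018 over all genes tested. Vcan and Lamc1 were at -0.31 and -0.30, each with a standard error of 0.19, and Col3a1, the most abundant, at -0.24 with a standard error of 0.28. Each of these 3 differences had an adjusted p of 0.999 in edgeR.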

How the data were processed

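RNA had been isolated with a lipid tissue kit and sequenced on Illumina instruments. The authors deposited raw counts per Entrez gene for 12 libraries, without normalization. The submitters' processing notes name bcl2fastq, CASAVA 1.8, TopHat, DESeq and the build rn4, and the counting program, annotation and use of strand were not given in the sources used here. Symbols were matched for 16351 of the 16511 genes in the RefSeq table of GRCr8, which was otherwise used only for gene order and promoters.

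The members and gene lists were chosen with earlier results of these data known. HFB and CTL were compared gene by gene in R 4.3.3 with edgeR 4.0.16 (quasi-likelihood test, TMM, filterByExpr, Benjamini-Hochberg over 9382 genes, threshold 0.05). Alternatives included DESeq2 1.42.0, limma 3.58.1 with sample quality weights, other scalings and filters, a skeletal muscle score as covariate and leaving out libraries. In addition to the members, the rule named, for each list, genes past the adjusted threshold, the 2 with the smallest p and the one with the highest median CPM, and for each tested member the 3 most correlated genes. A gene that the rule names is not reported here. Relations used log2 CPM with a prior count of 2, two-sided permutation tests with 100000 resamples over 12 libraries and exact ones over 9, in Python 3.11.15, adjusted over 81 relations. Marker scores were means of log2 CPM over lists for 11 cell types. None of the 30 pairs of libraries within a diet agreed within sampling noise.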

Additional observations from a re-analysis of the deposited data

Results flagged for a closer look

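Within each diet the highest and lowest of the 6 libraries were compared with their nearest neighbour for the 10 members, in 20 groups. A library lay far from the others in 7 of these groups. Mmp13 did not reach 3 counts in either diet, which leaves 18 groups with a library of at least 3 counts. With independent, normally distributed values a library is this far from the others in about 1 in 20 groups. The groups here share the same libraries and include genes with few counts, so this rate is only a rough guide. CTL 14 was such a library for Mmp2, at 237 CPM against 464 in the next lowest control, for Mmp9, at 11.8 CPM against 2.60, for Timp1, at 68.2 CPM against 38.2, and for Timp3, at 26.5 CPM against 78.0. HFB 6 was such a library for Mmp9, at 13.5 CPM against 4.09, and for Timp1, at 171 CPM against 73.6. CTL 11 had 4.61 CPM of Mmp3 against 2.09 in the next highest control, which rests on 11 counts. Thus 6 of the 7 are values of CTL 14 or HFB 6.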

How the results depend on the processing

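The number of genes with an adjusted p under 0.05 was 0 under each alternative run. The number at an unadjusted p under 0.05, 220 with all libraries, was 613 with limma, 431 without CTL 14 and HFB 6, and 509 without HFB 5, HFB 6 and CTL 14. Leaving out 1 library gave 135 to 587 genes. It was 135 without HFB 5, 137 without CTL 11, 141 without CTL 7 or CTL 10, 378 without HFB 1, 389 without HFB 4 and 587 without CTL 14. The cause was not tested.

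The log2 fold change of Mmp2, 0.0036 with all libraries, was -0.032 with upper-quartile scaling, -0.017 where only genes with 10 or more counts throughout were kept, -0.22 with limma, -0.021 with the skeletal muscle score as covariate, -0.081 without CTL 14 and HFB 6 and -0.23 without the 3 libraries. That of Timp1 was -0.35 with limma and -0.45 without the 3 libraries, and that of Timp2 was -0.039 without them. Leaving out 1 library gave -0.12 to 0.088 for Mmp2, -0.24 to 0.017 for Mmp14 and -0.20 to 0.78 for Timp1. For Timp2 it gave 0.11 without HFB 5 to 0.33 without HFB 1, against 0.22. With limma Mmp14 was at -0.53, against -0.11, and Timp2 at 0.0083. Timp1, at 0.53 with all libraries, was at 0.20 with the skeletal muscle score as covariate and at 0.023 without CTL 14 and HFB 6, where Mmp14 was at -0.29 and Timp2 at 0.13. Timp4 was at 0.13 with that covariate, against 0.24, and Timp3 at -0.23 with limma, against -0.36. Timp3 and Timp4 kept their sign under each alternative that gave a value, but leaving out 1 library gave -0.53 to -0.11 for Timp3 and 0.058 to 0.42 for Timp4, with the values nearest 0 without HFB 6. No member had an adjusted p under 0.05 under any of them. Timp3 has no value under that filter, since HFB 6 had 9 counts.

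Of the 81 relations 2, Mmp2 with the fibroblast score and Timp1 with Timp3, had by Pearson r an adjusted p under 0.05 over 12 libraries. Without CTL 14 and HFB 6 neither did (adjusted p = 0.2001 and 0.317), and 1 other relation, Mmp14 with the bone and cartilage score, did. Without the 3 libraries 0 did, where fewer libraries were used. Without the 3 libraries r was 0.21 for Timp1 and Timp3 and 0.099 for Timp3 and Timp4, turned from negative over 12. Leaving out the 3 libraries was added after the data had been seen. No paired analysis was run, since the labels give no pairing of litters between the diets. The running library numbers go through HFB first and then CTL. An effect of that order therefore cannot be told apart from diet. The depth of these libraries limits Mmp3, Mmp9, Mmp11 and Mmp13, which were not tested.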

Other observations

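The epithelial score was highest in CTL 14, HFB 6 and HFB 5, the libraries with the most Timp1. Over the 9 other libraries Timp1 and this score had r = 0.66 (exact permutation p = 0.0496, adjusted p = 0.370) and rho = 0.72 (exact permutation p = 0.0369, adjusted p = 0.337). Without the 2 of these libraries farthest from the median score r was 0.68. Over all 12 libraries, which in Timp1 fall into separate clusters, rho was 0.86 (permutation p = 0.00056, adjusted p = 0.0454) and r did not pass the adjusted threshold. In the bone and cartilage score the protease gene Ctsk was the most abundant of 5 genes counted. Acan was at 0 in 11 libraries, Ibsp in 10 and Bglap in 5. The score thus varied mainly with Ctsk and Col2a1 and is not read as bone or cartilage content. Mmp14 and this score had r = 0.75 over 12 libraries (permutation p = 0.00564, adjusted p = 0.0704) and rho = 0.82 (permutation p = 0.0018, adjusted p = 0.0518). Without the 2 libraries farthest from the median score r was 0.54, and it was 0.95 within HFB (0.94 without HFB 6) and 0.21 within CTL (0.67 without CTL 14). Without CTL 14 and HFB 6 it was 0.88 (permutation p = 0.00059, adjusted p = 0.0478), the only set run in which r of this pair passed the adjusted threshold. Over the 9 libraries without HFB 5, HFB 6 and CTL 14 it was 0.85 (exact permutation p = 0.00301, adjusted p = 0.244) and rho was 0.90 (exact permutation p = 0.00203, adjusted p = 0.164). Both relations were picked from the 81 after their values had been seen. Among those not picked, Timp4 and the skeletal muscle score had r = 0.74 over 12 libraries (permutation test, adjusted p = 0.0704). Over the 9 libraries r of that pair was also 0.74 (exact permutation test, adjusted p = 0.307).

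The median log2 fold change of HFB against CTL was -0.099 for the fibroblast list, -0.0027 for adipocyte, -0.28 for epithelial, -0.26 for myoepithelial, 0.42 for skeletal muscle, 0.085 for macrophage, 0.024 for neutrophil, 0.37 for lymphoid, -0.13 for endothelial, -0.54 for bone and cartilage and 0.78 for red blood cell markers, over the genes of each list that were tested. The neutrophil, lymphoid and bone and cartilage values rest on 2 tested genes each, of 7, 7 and 5 counted, and the endothelial and red blood cell values on 3 each.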
